A study of Mus musculus with 4 samples.

Results

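The 36 genes described here encode aminoacyl-tRNA synthetases, 20 that act in the cytosol and 16 that act in mitochondria. They were taken by symbol from a list of members, and all 36 were found among the 22672 named genes of the count table. All 36 were also among the 12758 genes that passed the filter on low counts, and none held fewer than 522 reads in any library. The cells were mouse splenic T cells of the Pmel strain, whose transgenic T cell receptor recognises a peptide of gp100, a protein of pigment cells. The control group was 2 libraries of wild-type Pmel T cells and the other group was 2 libraries labelled SphK1 -/-, that is, lacking sphingosine kinase 1, which makes the signalling lipid sphingosine-1-phosphate. Cells of both groups carried the Pmel receptor and were cultured for 72 h with 1 µg/ml of the peptide and 100 U/ml of IL-2 before RNA was taken for poly(A) mRNA libraries. The age of the mice, the design of the null allele and whether libraries of a genotype came from separate animals are not given in the sources used here, so the p-values reflect nothing beyond the spread among these samples, and that spread may be technical.

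Aminoacyl-tRNA synthetases join each amino acid to its matching tRNA, which carries it to the ribosome. Most amino acids have separate nuclear genes for the cytosolic and the mitochondrial enzyme, whereas Gars and Kars supply both compartments from a single gene. Several cytosolic synthetases are held together in the multisynthetase complex, and many synthetase genes are known targets of ATF4, the transcription factor of the amino acid response. T cells are known to raise amino acid uptake and protein synthesis after activation.

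The libraries held between 43642723 and 53500852 counts in named genes. Sphk1, the targeted gene, went against the labels, since control libraries held 2 and 4 of its reads and those labelled knockout held 35 and 18 (log2 fold change 3.12 ± 0.66, SE, adjusted p = 0.0233 by edgeR's quasi-likelihood test with Benjamini-Hochberg adjustment). Groups are therefore named by their labels throughout. Whether labels or columns were exchanged was not tested; if they were, every direction given here would turn, and the genes called lower and higher would trade places. All 9 cytotoxic T cell markers were present, with summed levels of 10483 and 9167 CPM (counts scaled to library size) in control and 9093 and 9404 CPM in the libraries labelled knockout. Markers of other cell types varied between libraries. The 6 B cell markers summed to 138 and 146 CPM in control and to 312 and 151 CPM in libraries knockout 1 and knockout 2, and 2 of the 6, Cd79a and Ebf1, passed the test as higher. The 7 natural killer cell markers summed to 51.3 and 36.8 CPM in control and to 137 and 91.05 CPM in the libraries labelled knockout, with 2 of the 5 tested higher and Klra8 and Klra4 at 0 in every library. Those 2 were Klrc1 and Klra7, which share 53.9% and 25.6% of their 30-base words with other genes, and Klrc1 alone was at 52.5 and 36.2 CPM in the libraries labelled knockout. Most of the control sum was Eomes, at 40.6 and 26.1 CPM in control against 57.9 and 36.2 CPM. Ncr1 was at 0.660 and 0.757 CPM in control against 1.85 and 1.38 CPM. Neither Eomes nor Ncr1 passed the test, so these sums are not a measure of natural killer cells alone. The 6 macrophage markers in the table summed to 11.2 and 14.5 CPM in control against 29.9 and 18.2 CPM, with 1 of the 5 tested higher (Cd68). The 6 dendritic cell markers summed to 403 and 324 CPM in control against 565 and 265 CPM, with 1 of the 6 higher (Flt3). Most of each sum was Cd74 and H2-Ab1. Cd74 was at 251 and 227 CPM in control against 425 and 194 CPM. H2-Ab1 was at 149 and 94.3 CPM in control against 131 and 65.2 CPM. Itgax, Flt3 and Zbtb46, each at most at 4.15 CPM, were higher in both libraries labelled knockout than in both controls. Xcr1, at most at 0.515 CPM, overlapped between groups. The 2 helper T cell markers summed to 40.0 and 29.5 CPM in control against 35.0 and 18.0 CPM, and neither passed the test. The 4 erythroid markers in the table were at most at 0.412 CPM in every library, with Hba-a1 and Hba-a2 at 0 in every library. Library knockout 1, which had the highest B cell, macrophage, dendritic cell and natural killer cell sums, also had the lowest level of all 20 cytosolic synthetases. The other libraries did not follow this order throughout. Control 1, the highest library for 18 of the 20, had higher dendritic and natural killer cell sums than control 2, and lower B cell and macrophage sums. Itgax, Flt3 and Zbtb46, unlike the dendritic cell sum, were lower in control 1 than in control 2. Knockout 2 had the lowest dendritic cell sum, made up mostly of Cd74 and H2-Ab1. Its summed cytosolic synthetase level was below that of both controls. The part of these markers in the synthetase levels was not tested, and in bulk RNA fewer cells of a type and less RNA per cell cannot be told apart.

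Among the 36 synthetase genes 1 passed the test, Lars2, which by the labels fell to 32.1% of its control level. Lars2 encodes the mitochondrial leucyl-tRNA synthetase. The single call compares with 0.752% of all genes tested called lower, and no synthetase gene was called higher against 6.0% of all genes tested. A further fit, described with Lars2 below, was limited to genes that share little sequence with others and held 31 of the 36. There 0.099% of genes were called lower and 0.682% higher, so 0 calls higher among the members is near the share over its genes. The fold change was below zero for 31 of the 36, against 53.8% of all genes. The median log2 fold change of the 36 was -0.20, beside -0.02 over all genes tested. Without library control 1 the median of the 36 was -0.08, without knockout 1 it was -0.11, and without control 2 or knockout 2 it was -0.28 or -0.29. At an unadjusted p under 0.05 there were 9 of the 36, all with negative fold changes, against 14.9% of all genes in either direction. Both libraries labelled knockout lay below both control libraries for 19 of the 36 (23.8% of all genes), both lay above for 0 (21% of all genes), and the groups overlapped for 17.

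The fold changes of the 2 classes are given apart. All 20 cytosolic genes had negative fold changes, from -0.56 to -0.06 with a median of -0.28, yet none passed the test after adjustment. An unadjusted p under 0.05 was found for 7 of the 20, against 14.9% of all genes in either direction. Without library control 1 the fold change of Farsa was 0.0018 and those of the other 19 stayed negative. The cytosolic median was -0.13 without control 1, -0.19 without knockout 1, -0.40 without control 2 and -0.38 without knockout 2. By DESeq2 2 of the 20 were called, Cars and Sars, and by limma-voom 0. Of the 16 mitochondrial genes 11 had negative fold changes, with a median of -0.08 and a range from -1.64 to 0.09. Without knockout 1 the mitochondrial median was 0.01. The groups did not overlap for 15 of the 20 cytosolic genes and for 4 of the 16 mitochondrial genes, in each case with the libraries labelled knockout lower. Among all genes tested this held for 23.8%, so the mitochondrial count was near the share over all genes. No test of the difference between the classes was made. Under scaling by library totals alone, the median of all genes moved from -0.02 to -0.26 and 18 of the 36 synthetase genes were called lower, 14 cytosolic and 4 mitochondrial, with all 36 fold changes negative. That scaling called 1432 of all genes lower, against 96 in the reported fit. Relative to the median of all genes, the cytosolic median was -0.25 and the mitochondrial median -0.06 under both scalings, with 20 of 20 and 11 of 16 genes below it. A change of scaling shifts all genes by nearly the same amount, so this likeness was set in advance. With a library left out, the relative cytosolic median ran from -0.41 (without control 2) to -0.13 (without control 1). The relative mitochondrial median ran from -0.10 (without control 2) to 0.03 (without knockout 1). Without knockout 1, 18 of 20 and 7 of 16 genes lay below the all-gene median. Without library control 2, 3 synthetase genes were called lower (Lars2, Cars and Nars), and without library knockout 2, 2 were (Lars2 and Cars).

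**Figure D1:**
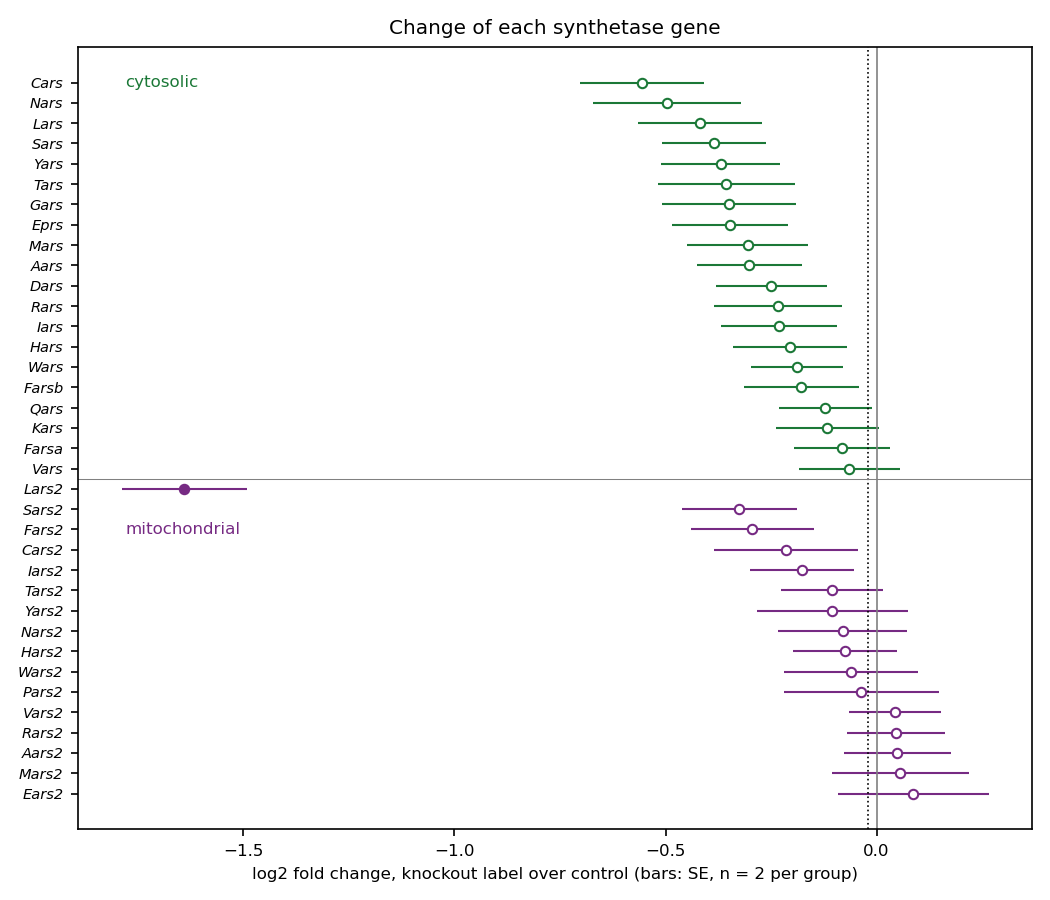
Log2 fold change (libraries labelled knockout over control) of each of the 36 synthetase genes with its standard error, cytosolic and mitochondrial genes apart; a filled point has an adjusted p under 0.05 and the dotted line is the median of all genes tested. All 20 cytosolic points lie left of zero, between -0.56 and -0.06, and Lars2 at -1.64 is the single filled point.

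The summed level of the 20 cytosolic genes was 6434 and 5556 CPM in the control libraries and 4662 and 5272 CPM in the libraries labelled knockout, so that the mean was 82.9% of control, a log2 ratio of -0.27. Without control 1 this ratio was -0.13, without knockout 1 it was -0.18, and without control 2 or knockout 2 it was -0.37 or -0.36. The 4 libraries did not overlap by group in this sum, but the 2 controls lay further apart than control 2 and knockout 2. Gene by gene, control 1 was the highest library for 18 of the 20 and knockout 1 the lowest for 20 of the 20. The median log2 difference over the 20 genes was -0.23 from control 1 to control 2, with 18 genes lower in control 2. From control 2 to knockout 2 it was -0.07, with 15 genes lower in knockout 2. From control 2 to knockout 1 it was -0.25 with 20 of 20 lower, and from control 1 to knockout 1 it was -0.49 with 20 of 20 lower. The difference between the 2 controls was therefore larger than the smallest difference between libraries of different groups. The 16 mitochondrial genes summed to 712 and 717 CPM in control and to 570 and 634 CPM in the libraries labelled knockout, 84.2% of control. Without Lars2 the sums were 615, 599, 539 and 596 CPM in the same order of libraries, 93.5% of control.

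**Figure D2:**
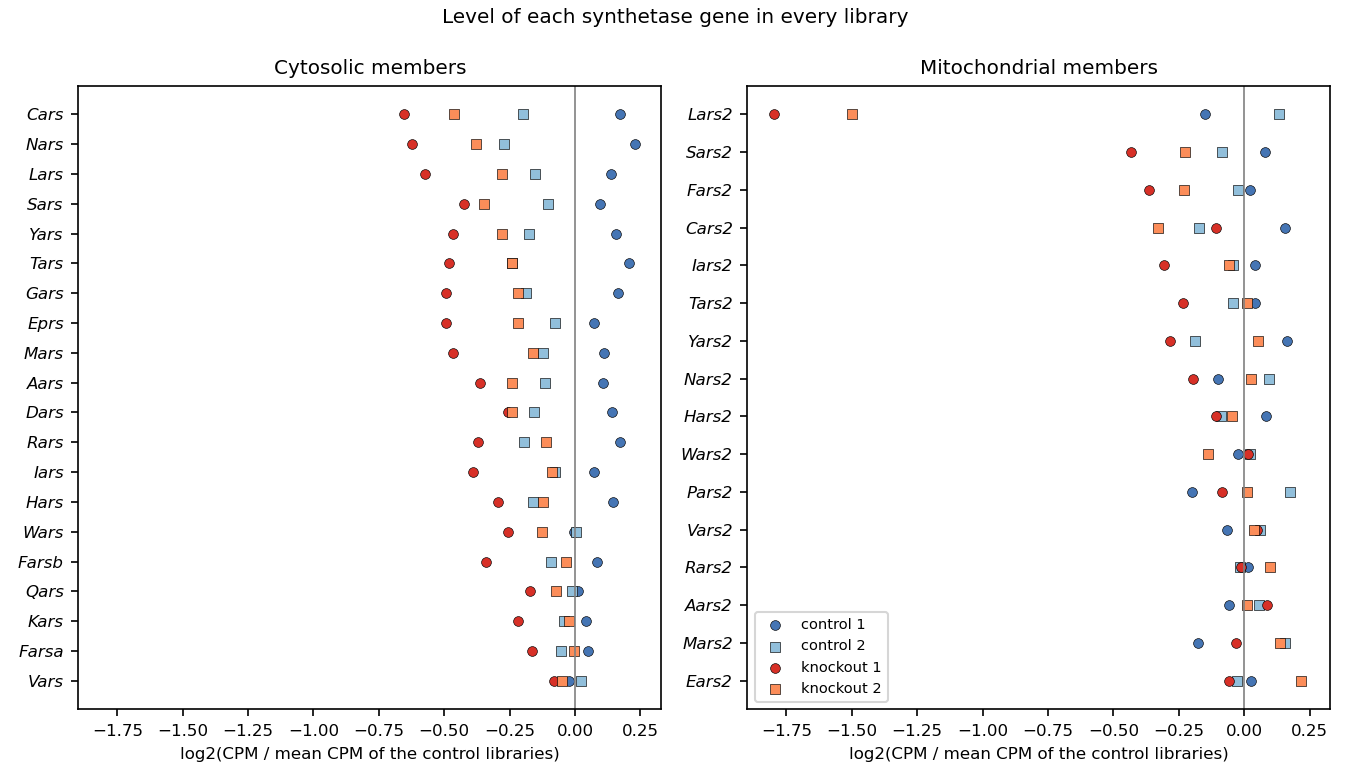
Level of each synthetase gene in each of the 4 libraries, as log2 CPM relative to the mean of the 2 control libraries, in a panel for the 20 cytosolic and a panel for the 16 mitochondrial genes. Library control 1 is the highest for 18 of the 20 cytosolic genes and library knockout 1 is the lowest for all 20, while the groups overlap for 12 of the 16 mitochondrial genes and lie furthest apart for Lars2.

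Expressed per length, the classes occupied separate ranges. In reads per kilobase of the longest coding transcript, scaled to library size (RPKM), control means of the 20 cytosolic genes ran from 50.5 (Tars) to 231 (Gars), with a median of 82.5. Control means of the 16 mitochondrial genes ran from 2.04 (Mars2) to 30.3 (Iars2), with a median of 10.8. In the libraries labelled knockout the cytosolic range was 39.0 (Cars) to 182 (Gars) with a median of 70.0 RPKM, and the mitochondrial range was 2.12 (Mars2) to 26.8 (Iars2) with a median of 9.20 RPKM. The highest mitochondrial gene thus stayed below the lowest cytosolic gene in both groups. That separation depends on the length used, such as 5471 bases for Iars2, and other transcript lengths were not tried. In CPM the classes overlapped. The mean of Iars2 was 166 CPM in control and 147 CPM in the libraries labelled knockout, against 98.2 and 92.8 CPM for the cytosolic gene Farsa.

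**Figure D3:**
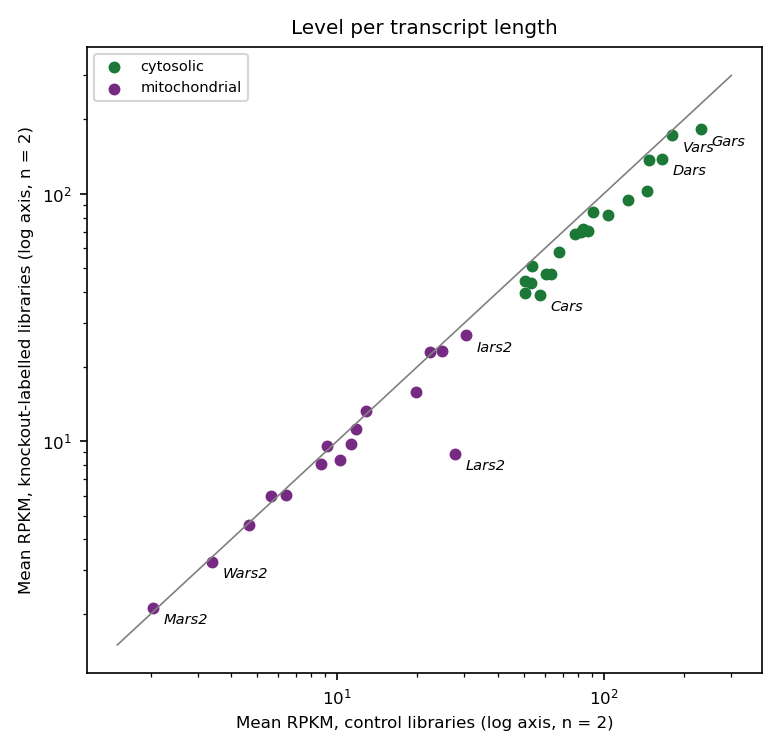
Mean RPKM of each synthetase gene in control (horizontal axis) and in the libraries labelled knockout (vertical axis), both on log scales, with the diagonal marking equal levels. Cytosolic genes lie between 39.0 and 231 RPKM and mitochondrial genes between 2.04 and 30.3 RPKM, and Lars2 lies furthest below the diagonal.

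Within the multisynthetase complex all 8 members (Eprs, Iars, Lars, Mars, Qars, Rars, Kars and Dars) had negative fold changes, with a median of -0.24 on the log2 scale, and none passed the test. Lars, the cytosolic leucyl-tRNA synthetase, which also acts as a leucine sensor upstream of mTORC1, was at 276 and 226 CPM in control and at 169 and 207 CPM in the libraries labelled knockout. The groups did not overlap, and the log2 fold change was -0.42 ± 0.15 (SE, n = 2 per group; adjusted p = 0.197 by edgeR's quasi-likelihood test). Eprs, which joins glutamate and proline to their tRNAs in a single fused protein, was at 536 and 484 CPM in control and at 362 and 439 CPM in the libraries labelled knockout. Both of the latter were lower than both controls, with a log2 fold change of -0.35 ± 0.14 (adjusted p = 0.267, edgeR). Kars, the lysyl enzyme of cytosol and mitochondria, was at 333 and 314 CPM in control against 278 and 319 CPM, and the groups overlapped (log2 fold change -0.12 ± 0.12, adjusted p = 0.738, edgeR). Qars, the glutaminyl enzyme, was at 257 and 254 CPM in control against 227 and 243 CPM, a log2 fold change of -0.12 ± 0.11 (adjusted p = 0.695, edgeR) without overlap. The other 4 members of the complex had log2 fold changes of -0.31 (Mars), -0.25 (Dars), -0.23 (Rars) and -0.23 (Iars).

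The 3 scaffold proteins of the complex were Aimp1, Aimp2 and Eef1e1, and none of them passed the test. Their log2 fold changes were -0.31 for Aimp1, -0.23 for Aimp2 and 0.05 for Eef1e1, and the groups overlapped for the latter pair. Aimp1 was at 139 and 112 CPM in control and at 99.1 and 103 CPM in the libraries labelled knockout, both lower than both controls (SE of the log2 fold change 0.13, adjusted p = 0.304, edgeR).

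The 12 cytosolic synthetases outside the complex also all had negative fold changes, with a median of -0.33, and none passed the test. Cars, the cysteinyl-tRNA synthetase, came closest. It was at 208 and 161 CPM in control and at 118 and 134 CPM in the libraries labelled knockout, without overlap, at a log2 fold change of -0.56 ± 0.15 (SE; adjusted p = 0.0664, edgeR). Cars passed the threshold with the replicate number as a block (adjusted p = 0.00988), by DESeq2, under library totals alone, without control 2 (adjusted p = 0.0135) and without knockout 2 (adjusted p = 0.0488). Over all alternatives its adjusted p ran from 0.00988 to 0.348. Sars, the seryl enzyme, which also charges the selenocysteine tRNA, was at 468 and 408 CPM in control against 326 and 344 CPM. Both libraries labelled knockout were lower (-0.39 ± 0.12, adjusted p = 0.141, edgeR). Nars, the asparaginyl enzyme, varied most between controls, at 465 and 329 CPM, against 258 and 305 CPM in the libraries labelled knockout. The groups did not overlap, and the log2 fold change was -0.50 ± 0.18 (adjusted p = 0.199, edgeR), with an adjusted p of 0.0219 without control 2 and a range of 0.0219 to 0.806 over the alternatives.

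Yars, the tyrosyl enzyme, was at 197 and 157 CPM in control and at 128 and 146 CPM in the libraries labelled knockout, without overlap (-0.37 ± 0.14, adjusted p = 0.247, edgeR). Aars, the alanyl enzyme, was at 331 and 284 CPM in control and at 239 and 260.1 CPM in the libraries labelled knockout (-0.30 ± 0.13, adjusted p = 0.301, edgeR). Its groups did not overlap either. Gars, the glycyl enzyme of both compartments and the most highly expressed synthetase per length, was at 618 and 484 CPM in control against 391 and 473 CPM (-0.35 ± 0.16, adjusted p = 0.362, edgeR). Control 2 and knockout 2 were close together for Gars.

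Wars, the tryptophanyl enzyme, which interferon-gamma is known to induce, was at 143 CPM in both control libraries and at 119.9 and 131 CPM in the libraries labelled knockout. Its log2 fold change was -0.19 ± 0.11 (adjusted p = 0.505, edgeR). Its 2 controls were the most alike of the cytosolic genes in absolute level, and the groups did not overlap. The phenylalanyl enzyme is built of an alpha subunit, Farsa, and a beta subunit, Farsb. Farsa was at 102 and 94.7 CPM in control against 87.7 and 98.0 CPM, and Farsb at 168 and 149 CPM against 125 and 155 CPM. Both overlapped between groups, with log2 fold changes of -0.08 ± 0.11 (adjusted p = 0.813, edgeR) and -0.18 ± 0.14 (adjusted p = 0.627, edgeR). The remaining cytosolic genes outside the complex were Tars (-0.36), Hars (-0.20) and Vars, the valyl enzyme, which had the smallest fold change of the class at -0.06 and the most reads, 33117 to 37924 per library.

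Promoter sequence is shown for the cytosolic genes because ATF4 and its C/EBP partners are known to bind an element of the form TGATGNAA, which was searched on both strands, so that capitals can also show its reverse complement. The motif was chosen after the fold changes had been seen. RefSeq windows of 300 bases, from 250 before to 50 after the start of the gene (GRCm38.p6), were matched for 27 of the 36 members. The motif was in 1304 of the 32851 windows of that length (3.97%), or, counted per gene, in 1219 of the 27025 genes with a window (4.51%). Among the synthetases it was in 5 of the 13 cytosolic windows, those of Aars (with 2 sites), Gars, Iars, Tars and Yars, and in 0 of the 14 mitochondrial windows. No window was matched for Cars, Hars, Hars2, Lars, Nars, Pars2, Rars, Vars and Wars. The sequences below run 5′ to 3′ on the strand of the gene, with the motif in capitals. Aars upstream lies at chr8:111033712-111033841 and Aars at the start at chr8:111033840-111033869, both on the plus strand. Gars lies at chr6:55037871-55038000 (plus), Tars at chr15:11399659-11399788 (minus), Iars at chr13:49682126-49682155 (plus) and Yars at chr4:129189895-129189924 (plus).
Aars upstream: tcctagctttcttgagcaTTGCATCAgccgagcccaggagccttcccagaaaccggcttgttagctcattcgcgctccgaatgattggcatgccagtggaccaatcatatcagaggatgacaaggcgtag
Aars at the start: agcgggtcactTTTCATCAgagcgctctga
Gars: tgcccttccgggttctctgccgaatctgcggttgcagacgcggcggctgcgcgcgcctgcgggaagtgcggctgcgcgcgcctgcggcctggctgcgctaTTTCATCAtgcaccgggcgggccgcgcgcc
Tars: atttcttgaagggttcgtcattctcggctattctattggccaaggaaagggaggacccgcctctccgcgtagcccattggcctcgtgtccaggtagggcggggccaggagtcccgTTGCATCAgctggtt
Iars: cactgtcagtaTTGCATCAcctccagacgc
Yars: acgagctcagcTGATGCAAcccgacgggac

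The 5 cytosolic genes with the motif had log2 fold changes from -0.37 to -0.23, with a median of -0.35. The 8 cytosolic genes with a window and no motif ran from -0.39 to -0.08, with a median of -0.21. Cytosolic genes without a window are in neither group and ran from -0.56 (Cars) to -0.06 (Vars). They include the lowest fold changes of the class, those of Cars, Nars (-0.50) and Lars (-0.42). The ranges overlapped and no test was made. A match describes the letters of the window and is not a measured binding site. Asns and Trib3, textbook ATF4 targets outside the synthetases, carried the same motif and are shown for comparison, at chr6:7693214-7693243 (minus) and chr2:152344028-152344057 (minus).
Asns: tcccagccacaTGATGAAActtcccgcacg
Trib3: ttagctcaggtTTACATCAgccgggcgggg

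Of the 29 genes of the amino acid response, which includes ATF4, its targets and amino acid transporters and enzymes, 24 had negative fold changes, with a median of -0.28. Among all genes tested 53.8% had negative fold changes. Of the 29, 2 were called lower and 1 higher, beside 0.752% and 6.0% of all genes tested. Cth, which makes cysteine from cystathionine, was at 13.2 and 11.7 CPM in control and at 5.28 and 6.47 CPM in the libraries labelled knockout (log2 fold change -1.08 ± 0.20, adjusted p = 0.0107, edgeR). Trib3, a pseudokinase of the stress response, was at 74.1 and 43.2 CPM in control against 30.2 and 28.5 CPM (-0.996 ± 0.223, adjusted p = 0.0304, edgeR). The groups did not overlap for either. Phgdh, the first enzyme of serine synthesis, rose from 155 and 152 CPM to 483 and 590.0 CPM (1.81 ± 0.14, adjusted p = 3.015e-05, edgeR), but 56.8% of its 30-base words also occur in other genes, so reads of near-identical copies may be split in its count. Asns, the asparagine synthetase, was at 127 and 143 CPM in control against 101 and 111 CPM, which did not pass (-0.35 ± 0.12, adjusted p = 0.166, edgeR). Nupr1, Slc3a2 and Psph did not pass either, at log2 fold changes of -1.17, -0.55 and -0.63.

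Other steps of tRNA use were read beside the 6.0% of all genes called higher and the 0.752% called lower. None of the 13 tested charging and editing enzymes outside the 36 members passed, with a median log2 fold change of -0.07, and none of the 20 genes of tRNA transcription passed, with a median of -0.11. Of 18 genes of tRNA processing and export 2 rose, the splicing endonuclease subunits Tsen34 (0.75 ± 0.16, adjusted p = 0.0233, edgeR) and Tsen15 (0.89 ± 0.19, adjusted p = 0.0237, edgeR), with 30.9% and 9.85% of their words shared with other genes. Of 9 elongation factors tested 3 rose, Eef1g (log2 fold change 3.30), Tufm (3.09) and Eef1a1 (1.85), and 47.8%, 58.5% and 51.4% of their words are shared with other genes. Of the synthetases themselves 8 share no word with another gene.

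Lars2 (chr9:123366927-123462666, plus strand, GRCm38) was the only synthetase gene to pass the test. It was at 97.3 and 118 CPM in the control libraries, from 4571 and 5939 reads, and at 31.0 and 38.2 CPM in the libraries labelled knockout, from 1458 and 1854 reads. Both libraries labelled knockout lay far below both controls relative to the spread within each group. The means were 108 ± 14.9 CPM (SD, n = 2) and 34.6 ± 5.06 CPM (SD, n = 2). The log2 fold change was -1.64 ± 0.15 (SE; adjusted p = 0.000114, edgeR's quasi-likelihood test with Benjamini-Hochberg adjustment). The further fit named above covered the 9093 genes that share little sequence with other annotated genes and overlap no other gene by much. Lars2 was again called, at -1.60 (adjusted p = 0.00279, edgeR), in a fit that called 0.099% of its genes lower. Sequence was compared among annotated transcripts only, and the ribosomal RNA entry Rn45s was not matched to the annotation. Words that Lars2 may share with Rn45s were therefore not counted, and such sharing was not tested by this fit. No synthetase gene was called higher in it, against 0.682% of its genes. Over the 13 alternative settings its fold change stayed between -1.88 and -1.49.

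The sequence just before the start of Lars2 holds no TGATGNAA motif. The 120 bases before the start (chr9:123366807-123366926, plus strand, GRCm38.p6) are shown to set the single called gene beside the cytosolic promoters above.
Lars2: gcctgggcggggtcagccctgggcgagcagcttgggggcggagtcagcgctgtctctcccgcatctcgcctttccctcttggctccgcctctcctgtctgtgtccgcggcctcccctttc

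Genes on either side of Lars2 on chromosome 9 did not pass the test. Limd1, downstream, was at 105 and 112 CPM in control and at 98.5 and 98.9 CPM in the libraries labelled knockout (log2 fold change -0.14, adjusted p = 0.635, edgeR), and Sacm1l was at 151 and 152 CPM against 127 and 140.1 CPM (-0.18, adjusted p = 0.53, edgeR). Tmem158, upstream, held 43 to 73 reads per library and had a log2 fold change of 0.10. Rn45s, the entry of the 45S precursor of ribosomal RNA, moved with Lars2. It was at 646 and 794 CPM in control, from 30344 and 39821 reads, and at 50.7 and 52.7 CPM in the libraries labelled knockout, from 2385 and 2561 reads. Its log2 fold change was -3.80 ± 0.15 (SE; adjusted p = 4.77e-07, edgeR). Control 2 was the highest and knockout 1 the lowest library for both entries. The 3′ UTR of Lars2 starts at base 2906 of a transcript of 3894 bases and holds stretches that resemble the noncoding transcripts AA474408 (96.0% over 50 bases and 94.8% over 97 bases) and Gm15564 (98.6% over 72 bases). Counts of those transcripts were not analysed here. The part of ribosomal RNA reads or of these stretches in the level of Lars2 was not tested.

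**Figure D4:**
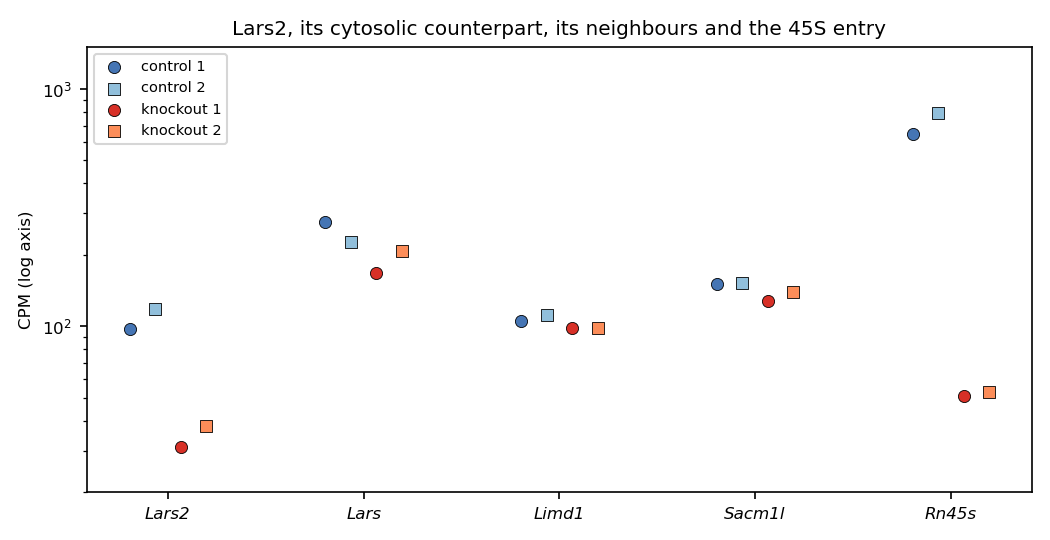
Level in CPM (log axis) of Lars2, its cytosolic partner Lars, the neighbouring genes Limd1 and Sacm1l and the ribosomal RNA entry Rn45s in each of the 4 libraries. Lars2 drops from about 108 to 34.6 CPM and Rn45s from 646 and 794 to 50.7 and 52.7 CPM, while Limd1 and Sacm1l stay within 98.5 to 152 CPM.

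The other 15 mitochondrial synthetase genes stayed closer to their controls, 10 with negative and 5 with positive fold changes, a median of -0.08 and no call. Sars2, the seryl enzyme, was at 39.1 and 34.9 CPM in control and at 27.4 and 31.6 CPM in the libraries labelled knockout, without overlap (-0.33 ± 0.14, adjusted p = 0.308, edgeR). Fars2, the phenylalanyl enzyme, which works as a single chain in mitochondria, was at 22.2 and 21.5 CPM in control against 17.0 and 18.6 CPM, again without overlap (-0.29 ± 0.15, adjusted p = 0.417, edgeR). Iars2, the isoleucyl enzyme and the most abundant of the class per length, was at 171 and 161 CPM in control against 134 and 159 CPM (-0.18 ± 0.12, adjusted p = 0.588, edgeR). Control 2 and knockout 2 were close for Iars2.

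Cars2, the cysteinyl enzyme, was at 23.9 and 19.1 CPM in control and at 19.95 and 17.1 CPM in the libraries labelled knockout, with overlap (-0.21 ± 0.17, adjusted p = 0.644, edgeR). Tars2, the threonyl enzyme, was at 82.3 and 77.6 CPM in control against 68.0 and 80.6 CPM (-0.11 ± 0.12, adjusted p = 0.765, edgeR). Hars2, the histidyl enzyme, was at 41.5 and 36.9 CPM in control against 36.4 and 37.9 CPM (-0.08 ± 0.12, adjusted p = 0.841, edgeR). Yars2, the tyrosyl enzyme, was at 27.4 and 21.4 CPM in control against 20.1 and 25.3 CPM (-0.10 ± 0.18, adjusted p = 0.848, edgeR). The groups overlapped for all of Cars2, Tars2, Hars2 and Yars2. Of the rest, Ears2 (0.09), Mars2 (0.06), Aars2 (0.05), Rars2 (0.05) and Vars2 (0.04) had positive log2 fold changes and Nars2 (-0.08), Wars2 (-0.06) and Pars2 (-0.04) negative ones. The sign of each of these 8 changed in at least 1 alternative setting. For all 5 positive ones it changed under scaling by library totals alone.

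For 13 amino acids a separate cytosolic and mitochondrial gene could be set side by side. The cytosolic fold change was the more negative in 12 of the 13 pairs. The exception was leucine, with -0.42 for Lars and -1.64 for Lars2. The pairs share their libraries, so the count describes these 4 libraries and was not tested.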

How the data were processed

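The deposited values were counts per gene, whole numbers in 4 columns, 1 per library. Per the submitters' processing notes, the build was GRCm38 and the tools were HTSeq 0.6.1p1, TopHat2 2.0.13, DESeq2 1.14.1 and cutadapt 1.11. Their settings, the annotation, strand and treatment of multi-mapping reads are not given in the sources used here. Of 23419 entries, 720 without a name, empty in the libraries labelled knockout and taking 1.13% and 1.17% of control counts, and 27 with a date in place of a name were left out.

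Groups were compared with edgeR 4.0.16 in R 4.3.3 by its quasi-likelihood F test, with TMM scaling, a filterByExpr minimum of 10 counts, Benjamini-Hochberg adjustment over 12758 genes and a threshold of 0.05. The script was tested on simulated data. The SE is the size of a log2 fold change over the root of its F. CPM uses TMM-scaled library sizes, and RPKM divides CPM by the longest coding transcript of GENCODE M21, which also gave gene coordinates. DESeq2 1.42.0 and limma 3.58.1 were alternatives. A fit on single-copy genes kept genes with at most 5% of their 30-base words in another annotated gene. It also required at most 10% of their exonic bases under another gene. Promoter sequences came from RefSeq (GRCm38.p6).

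Members and gene lists were chosen with earlier results of these data known. Values in full are given for the 8 cytosolic and 8 mitochondrial members with the smallest p, every called member, and Wars, Gars, Kars, Qars, Farsa and Farsb for their roles. Of the other lists, every called gene and at most 4 others are named. None of the 4 listed mitochondrial ribosomal RNA and tRNA genes was analysed here.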

Additional observations from a re-analysis of the deposited data

How the results depend on the processing

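Lars2 was called lower under all 13 alternatives, with adjusted p from 4.96e-21 to 0.00279. The number of synthetase genes called lower, 1 in the reported fit, was 18 under library totals alone, 3 by DESeq2 and 1 to 3 when each library was left out in turn. Over all genes, 96 were called lower as reported, 1432 under library totals alone, 9 in the single-copy fit and 87 to 230 without a library. All genes called higher numbered 765 as reported, 62 in the single-copy fit and 645 to 825 without a library. Under library totals alone the median of the 36 was -0.44, and the log2 ratios of the summed levels were -0.51 (cytosolic) and -0.49 (mitochondrial). Without a library the median of the 36 ran from -0.29 to -0.08, the cytosolic ratio from -0.37 to -0.13 and the mitochondrial ratio from -0.33 to -0.17. The cause of these shifts was not tested, beyond the all-gene median that library totals alone moved.

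The difference between libraries 1 and 2 in control was compared with that in the libraries labelled knockout (correlation -0.037 over 12758 genes). A single correlation over all genes cannot decide whether same-numbered libraries were paired, since a pairing that touched only some genes could leave it near zero. The labels do not say whether they were paired. With the replicate number as a block, 2 synthetase genes (Lars2 and Cars) and 178 genes in all were called lower.

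Signs of small fold changes reversed under library totals alone for Aars2 (-0.19), Ears2 (-0.15), Mars2 (-0.19), Rars2 (-0.19) and Vars2 (-0.20), and in the single-copy fit for Pars2 (0.0037). When each library was left out in turn, the log2 fold change ran from -0.17 to 0.0018 for Farsa, from -0.15 to 0.042 for Hars2, from -0.070 to 0.24 for Mars2, from -0.28 to 0.11 for Yars2 and from -0.20 to 0.026 for Nars2. It ran from -0.18 to 0.17 for Pars2, from -0.23 to 0.012 for Tars2, from -0.058 to 0.22 for Ears2, from -0.012 to 0.10 for Rars2 and from -0.14 to 0.013 for Wars2. Depth limited no member strongly, since each held at least 522 reads in every library, and 5 members (Aars, Fars2, Iars2, Iars and Kars) were not in the single-copy fit.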
